A study of Homo sapiens with 14 samples.

Results

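The direct comparison of FOXD1 siRNA 1 with FOXD1 siRNA 2 was made in WM266-4, a human melanoma cell line with a BRAF mutation per the labels. It used the 3 arrays titled as knockdown 1 and the 3 titled as knockdown 2, which are 6 of the 14 arrays of the series, and every named gene detected at a detection p under 0.05 on at least 2 of those 6 arrays. This gave 13515 genes. The series measured total RNA on Illumina bead arrays after FOXD1 silencing in WM266-4 and after FOXD1 overexpression in A375, and its title concerns FOXD1, dedifferentiation, vemurafenib resistance and CTGF. The 3 WM266-4 arrays with a high-GC Stealth negative control siRNA entered the fit to estimate the spread between replicates and did not enter the contrast. Neither the siRNA dose nor the time of harvest is stated. Whether the replicates came from independent cultures is not stated either, and the p-values then reflect the spread among these arrays, possibly technical in origin. A source label of the siRNA 2 arrays names siFOXD2, whereas their titles and descriptions name FOXD1.

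Small interfering RNAs load a guide strand into Argonaute, which cleaves a perfectly paired target transcript. The same guide can also lower other transcripts that pair with its seed, the bases near its 5′ end, in the manner of a microRNA. A pair of siRNAs to the same gene is therefore used to separate effects of the shared target from effects of a given sequence. FOXD1 is a forkhead transcription factor known from kidney stroma and retina development. In a dividing melanoma culture, E2F factors drive the genes of DNA replication in S phase. MuvB complexes act with B-MYB and FOXM1 on the genes of G2 and mitosis, and p53 raises CDKN1A and other genes that restrain the cycle.

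The siRNA sequences are shown because this comparison is between them. Each is printed as the labels list it, 5′ to 3′, with bases 2 to 8 in capitals. The labels do not state whether the listed strand is the guide, so the reverse complement is given too.
siRNA 1: uACUGCUAggauuuccaauuguuaa
siRNA 1 reverse complement: uUAACAAUuggaaauccuagcagua
siRNA 2: gCCGAGGAaacagacaucgacgugg
siRNA 2 reverse complement: cCACGUCGaugucuguuuccucggc
Both have 25 bases, of which 8 are G or C in siRNA 1 (32.0%) and 15 in siRNA 2 (60.0%). The longest run of bases the listed strands share is 4. Of the 4 seeds, 0 were shared with any of the 2370 named human mature microRNAs in the RefSeq table used. Where the siRNAs pair with transcripts was not analysed here.

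FOXD1 itself was measured first, by probe ILMN_1704418. Its log2 signal was 6.49, 6.50 and 6.63 in siRNA 1 replicates 1 to 3 and 7.10, 7.14 and 7.06 in the arrays labelled FOXD1 siRNA 2. With control siRNA it was 6.97, 7.00 and 7.21. The siRNA 1 arrays were all below the others, and the siRNA 2 and control arrays overlapped. FOXD1 was detected on 1 of 3 siRNA 1 arrays and on 3 of 3 siRNA 2 arrays. The difference of siRNA 1 minus siRNA 2 was -0.56 (SE 0.0892, 95% confidence interval -0.753 to -0.367, limma adjusted p = 0.00163), which is 1.47-fold on this scale. The values carry no background subtraction, which compresses the folds of dim genes. With background correction the difference was -1.46 (adjusted p = 0.000883), a 2.75-fold difference. Since FOXD1 was not below the control arrays with siRNA 2, "siRNA 2" here means the arrays labelled so, and the loss of FOXD1 and other effects of siRNA 1 cannot be told apart in this contrast.

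FOXD2, the forkhead gene that the stray label names, had a log2 signal of 9.63, 9.49 and 9.53 with siRNA 1 and 9.91, 9.76 and 9.80 with siRNA 2. The control arrays read 10.06, 9.89 and 9.63. FOXD2 was thus not lower with siRNA 2 than with siRNA 1. Its difference of -0.27 was not called (adjusted p = 0.141), but a block on the replicate number brought it past the threshold (adjusted p = 0.0444). FOXD3 (-0.01), FOXD4 (-0.07) and FOXD4L1 (0.00) did not pass the test. CCN2, the gene of CTGF, was at 10.10, 9.91 and 10.11 with siRNA 1, 9.74, 9.75 and 9.96 with siRNA 2, and 12.90, 13.20 and 12.75 with control siRNA. Both siRNA groups lay well below the controls. The siRNA groups differed by 0.22 (interval -0.0316 to 0.478, adjusted p = 0.287), so a difference between them of more than 0.478 lies outside this interval.

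Across all genes, 1314 of 13515 (9.72%) differed between the siRNAs at a limma adjusted p under 0.05. With siRNA 1, 537 (3.97%) were higher and 777 (5.75%) were lower than with siRNA 2. The lower genes differed by more: of the 107 called genes with an at least 2-fold difference, 95 were lower and 12 were higher with siRNA 1. The 3 arrays of a siRNA did not overlap those of the other for 3615 genes (26.7%), among them 1310 of the 1314 called. At an unadjusted limma p under 0.05, 3132 of the 13515 genes differed in either direction. The median absolute log2 difference was 0.51 over called genes and 0.113 over all genes, and the median difference of all genes was 0.0133. A block on the replicate number raised the calls to 2390 genes (17.7%), 1137 higher and 1253 lower, and all 1314 were among them. The count depended on the arrays used: it was 758 without siRNA 1 replicate 1 and 845 without siRNA 1 replicate 3. The genes higher with siRNA 1 numbered 264 and 306 without these arrays and 344 without siRNA 2 replicate 1, and the genes lower numbered 494 without siRNA 1 replicate 1. Scaling moved the split as well. With median centring in place of quantile normalization, 50.7% of 1338 calls were higher with siRNA 1, against 40.9% here.

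**Figure D1:**
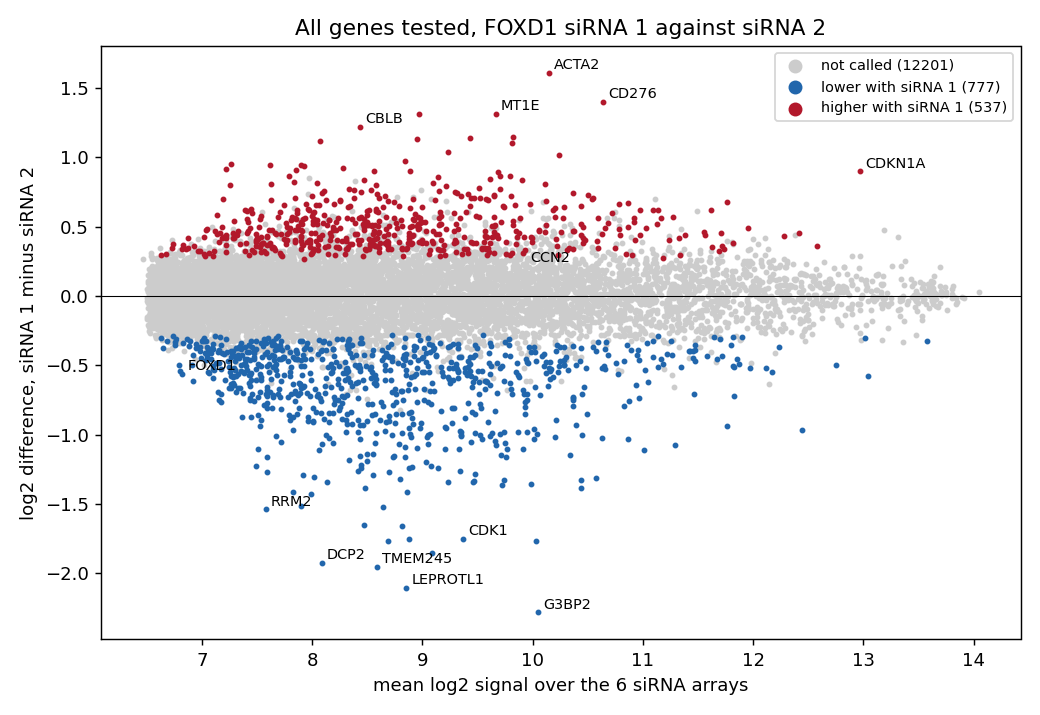
Log2 difference of siRNA 1 minus siRNA 2 (vertical axis) against mean log2 signal over the 6 siRNA arrays (horizontal axis) for each of the 13515 genes. Grey points were not called, the 777 blue points were lower and the 537 red points higher with siRNA 1, and the strongest differences, down to -2.28 for G3BP2, lie on the lower side.

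The strongest difference was in G3BP2, an RNA-binding protein of stress granules. Its log2 signal was 8.86, 8.87 and 9.00 with siRNA 1 and 11.19, 11.15 and 11.23 with siRNA 2, with the controls at 11.07, 11.16 and 11.23. The siRNA 2 and control arrays overlapped, and the siRNA 1 arrays lay 4.86-fold below siRNA 2 (difference -2.28, SE 0.0826, adjusted p = 1.52e-08). Both other G3BP2 probes read -1.97. LEPROTL1, a membrane protein of the leptin receptor overlapping transcript family, followed at -2.10 (7.69, 7.77 and 7.93 against 9.90, 9.85 and 9.95, adjusted p = 3.26e-08). Its relative LEPROT differed by -0.61 (adjusted p = 0.0071). The other 18 of the 20 tested genes of that family and of the ESCRT sorting machinery were not called, where 9.72% of all genes were called. The list's median was 0.04. With the replicate block 3 were lower and 1 was higher, where the block called 17.7% of all genes.

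DCP2, the catalytic subunit of the mRNA decapping complex, read 7.02, 7.14 and 7.21 with siRNA 1, 9.03, 9.27 and 8.84 with siRNA 2, and 9.30, 9.31 and 9.23 with control siRNA. It differed by -1.92 (adjusted p = 6.45e-07), which is 3.79-fold, or 7.20-fold with background correction. Its partners in decapping, DCP1A (0.28), DCP1B (0.05), EDC3 (-0.06) and EDC4 (0.06), were not called. Over all genes 5.75% were lower and 3.97% higher. Of 30 tested decapping and decay genes, 3 were lower (DCP2, CNOT9 at -0.41 and PATL1 at -0.41) and 1, PAN2 (0.35), was higher. With the replicate block 3 were lower and 3 higher, where the block called 17.7% of all genes. PATL1 was not called without siRNA 1 replicate 1 or siRNA 2 replicate 2 (adjusted p = 0.0736 and 0.0522), and PAN2 was not called when any of the 6 siRNA arrays was left out (adjusted p up to 0.0901).

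DICER1, which cuts microRNA precursors, was lower as well. It read 8.29, 8.06 and 8.11 with siRNA 1 against 9.37, 9.25 and 9.33 with siRNA 2, and 9.10, 9.41 and 9.17 with control siRNA. The difference was -1.16 (adjusted p = 1.88e-05), and a second bright DICER1 probe read -1.01. Among the other genes of the RNA interference pathway AGO2, the slicing Argonaute, was higher by 0.45 (adjusted p = 0.0124), with siRNA 1 at 9.30, 9.26 and 9.47, siRNA 2 at 8.83, 8.91 and 8.95, and controls at 9.75, 9.43 and 9.55. AGO2 was not called without siRNA 1 replicate 3 (adjusted p = 0.0605) or siRNA 2 replicate 1 (adjusted p = 0.051). The other 11 of 13 tested members, DROSHA (-0.04) and XPO5 (0.00) among them, were not called. Over all genes 9.72% were called.

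The 15 strongest differences on the lower side ranged from -2.28 to -1.43. Besides those above they were TMEM245 (-1.95), SLC35F1 (-1.85), UBL3 (-1.76), GPR180 (-1.76), the tight junction protein CLDN12 (-1.75), AMMECR1 (-1.52), DDIAS (-1.52), the pseudophosphatase STYX (-1.65) and a group of cell cycle genes. These were CDK1 (-1.75), the midbody protein CEP55 (-1.66), RRM2 (-1.54) and the licensing factor CDT1 (-1.43). For 14 of these 15 genes the control mean lay nearer to siRNA 2 than to siRNA 1, the exception being CDT1, at 8.05, 7.86 and 8.01 with control siRNA, 7.07, 7.38 and 7.37 with siRNA 1, and 8.42, 8.94 and 8.75 with siRNA 2. A dimmer STYX probe read 0.29 and was not called, so STYX rests on 1 of its probes.

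The 15 strongest differences on the higher side ranged from 0.94 to 1.61. ACTA2, smooth muscle actin, read 11.03, 10.79 and 11.04 with siRNA 1, 9.59, 8.59 and 9.85 with siRNA 2, and 9.45, 8.84 and 9.66 with control siRNA. It was 3.05-fold higher with siRNA 1 (1.61, SE 0.271, adjusted p = 0.00232), and its siRNA 2 arrays overlapped the controls. Others with the controls nearer to siRNA 2 were the sulfotransferases GAL3ST4 (1.14) and CHST14 (1.12), MXD4 (1.04), a partner of MAX that opposes MYC, the Wnt inhibitor DKK1 (0.94), CITED2 (0.94) and the histone gene H2BC5 (0.95). DKK1 lost its call without siRNA 1 replicates 1 or 2 or siRNA 2 replicates 1 or 3 (adjusted p between 0.103 and 0.14).

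For 7 of these 15 genes the control mean was nearer to siRNA 1, so the siRNA 2 mean lay further from the controls. CD276, the immune checkpoint protein B7-H3, read 11.42, 11.13 and 11.48 with siRNA 1, 9.68, 10.17 and 9.97 with siRNA 2, and 10.91, 10.86 and 11.32 with control siRNA (difference 1.40, adjusted p = 8.11e-05). CBLB, a ubiquitin ligase that restrains receptor signalling, read 9.11, 9.03 and 9.00 against 7.65, 8.01 and 7.81, with controls at 8.86, 8.96 and 8.87 (1.22, adjusted p = 1.17e-05). Its siRNA 1 arrays also lay above all control arrays, by less. The palmitoyltransferase ZDHHC7 (1.15), the sulfatase-activating enzyme SUMF1 (1.13), the amino acid transporter SLC7A8 (0.97) and the metallothioneins MT1E (1.32) and MT1X (1.11) made up the rest. SUMF1 was uneven with siRNA 2, at 7.93, 9.20 and 8.01, and was not called without siRNA 2 replicate 1 (adjusted p = 0.0527). MT1E lost its call without siRNA 1 replicate 1 or siRNA 2 replicate 2 (adjusted p = 0.0735 and 0.0523), and probes of metallothionein paralogs can share signal.

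TXNIP, a thioredoxin-binding protein that restrains glucose uptake, had all arrays of both siRNA groups above the controls. For 4 of the 15 genes, TXNIP among them, the control mean lay below both siRNA means. TXNIP read 10.75, 11.12 and 10.37 with siRNA 1, 9.55, 10.18 and 9.46 with siRNA 2, and 7.51, 7.43 and 8.19 with control siRNA. The siRNAs differed by 1.02 (adjusted p = 0.0153). The call was lost without siRNA 1 replicates 1 or 2 or siRNA 2 replicates 1 or 3 (adjusted p from 0.0573 to 0.0626) and with background correction (adjusted p = 0.0844).

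**Figure D2:**
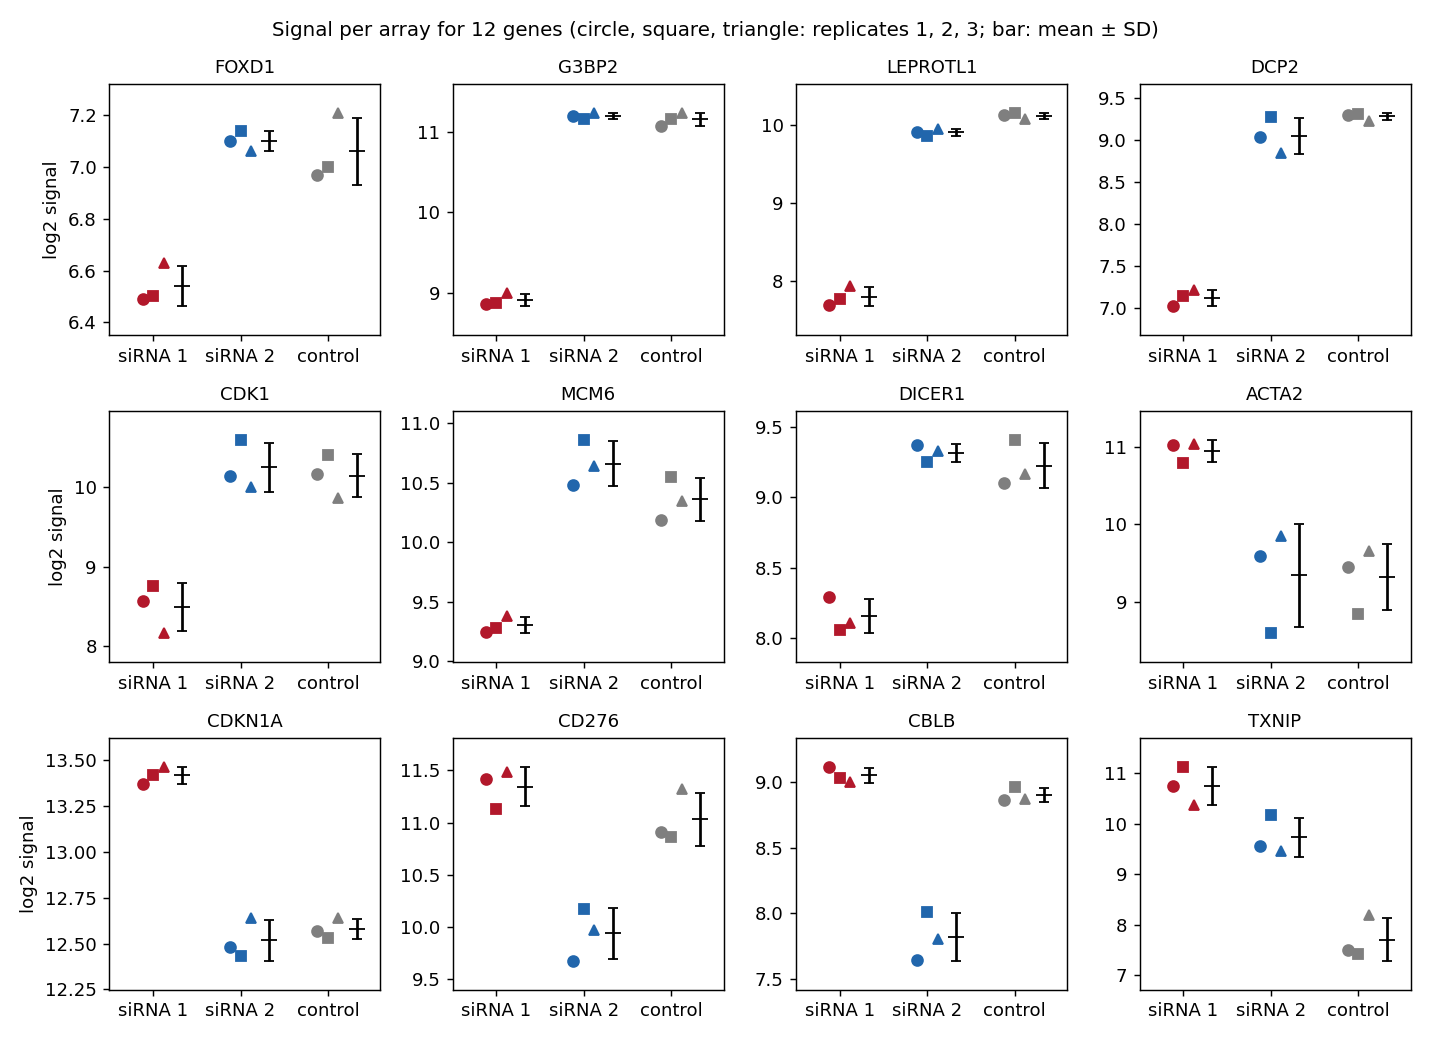
Log2 signal of 12 genes on each WM266-4 array (vertical axes, each with its own range that does not start at 0), with siRNA 1, siRNA 2 and control siRNA side by side, symbols for replicates 1 to 3, and bars for mean ± SD (n = 3). G3BP2, LEPROTL1, DCP2, CDK1, MCM6 and DICER1 are low with siRNA 1 alone, ACTA2 and CDKN1A are high with siRNA 1 alone, and CD276 and CBLB are low with siRNA 2 alone.

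Genes of DNA replication were lower with siRNA 1 as a group. Of 62 tested genes on 3 lists of S phase genes, 45 were lower and 0 were higher, with a median difference of -0.547, against 5.75% lower and a median of 0.0133 over all genes. In bulk RNA, fewer cells in S phase and less RNA per cell cannot be told apart. Of 23 genes that license origins or unwind DNA, 17 were lower. MCM6, a subunit of the replicative helicase, read 9.25, 9.28 and 9.38 with siRNA 1, 10.48, 10.86 and 10.64 with siRNA 2, and 10.19, 10.55 and 10.35 with control siRNA (-1.36, adjusted p = 1.62e-05). The other MCM helicase subunits went the same way, from MCM5 (-1.16) to MCM2 (-0.64), as did the helicase partners CDC45 (-1.33) and GINS2 (-1.22) and the loading factor MCM10 (-1.29). Among origin recognition genes ORC1 was lower (-0.70), and ORC2 (0.21), ORC3 (-0.12) and ORC6 (0.01) were not called. The mean log2 signal of the list was 8.32, 8.40 and 8.28 on the siRNA 1 arrays, 8.94, 9.16 and 8.98 on the siRNA 2 arrays, and 8.74, 8.81 and 8.78 on the control arrays. The control arrays lay between the siRNA groups, nearer to siRNA 2.

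Of 28 polymerase, clamp and fork genes, 22 were lower with siRNA 1 and 0 were higher. Over all genes 5.75% were lower and 3.97% higher. The flap nuclease FEN1 differed by -1.39, the clamp loader subunits RFC4 and RFC3 by -1.34 and -1.22, the polymerase epsilon subunit POLE2 by -1.30, and the primase partner POLA2 by -0.99. PCNA, the sliding clamp itself, differed by less (-0.49), and DNA polymerase delta subunit POLD2 was not called (-0.06). Of 11 genes that supply deoxynucleotides, 6 were lower. RRM2, the regulated subunit of ribonucleotide reductase, read 6.75, 7.05 and 6.63 with siRNA 1, 8.06, 8.67 and 8.31 with siRNA 2, and 7.93, 7.85 and 8.25 with control siRNA. It differed by -1.54 (2.90-fold, adjusted p = 6.45e-05), or 7.02-fold with background correction. RRM1 (-1.02), TK1 (-0.94) and DCK (-0.63) were lower too, and RRM2B, the p53-regulated small subunit, was not called (0.24). At an unadjusted limma p under 0.05, 1 gene of the licensing list and 1 of the deoxynucleotide list were higher, and 0 of the polymerase and fork list.

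Genes of the G1 to S step, which include RB factors that restrain it as well as drivers, were called in both directions. Of 25 tested, 7 were lower and 3 higher, with a median of -0.10, against 5.75% lower and 3.97% higher over all genes. E2F2 (-1.07) and the phosphatase CDC25A (-1.02) were lower, whereas E2F1 was higher by 0.46 (7.55, 7.20 and 7.43 against 6.91, 6.96 and 6.94, adjusted p = 0.0092). CCND3 (-0.60) was lower, and CCND1 (0.09), CDK4 (-0.06), RB1 (-0.12) and CCNE1 (-0.10) were not called. The count of 7 lower fell to 4 without siRNA 1 replicate 3 or siRNA 2 replicate 1.

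Histone genes were called in both directions. Of 61 replication-dependent histone genes on the array, only 31 passed the detection filter and were tested. Of these 31, 4 were higher (H2BC5, 0.95; H2AC6, 0.92; H2BC21, 0.56; H4C12, 0.46) and 1 was lower, with a median of 0.08, where 3.97% of all genes were higher and 5.75% lower. The lower gene, H4C3, was the brightest of the 5, at 11.83, 12.19 and 11.85 with siRNA 1 and 12.93, 13.24 and 12.60 with siRNA 2 (-0.97, adjusted p = 0.00148). The count of 4 fell to 2 without siRNA 1 replicate 1 or siRNA 2 replicate 2, and histone paralogs are similar enough that probes can share signal. Among the proteins that process histone mRNA and carry histones, of 14 tested, 7 were lower and 1, LSM10 (0.51), was higher. SLBP, which binds the stem-loop of replication-dependent histone mRNA, read 8.11, 8.12 and 8.24 with siRNA 1 against 9.48, 9.64 and 9.59 with siRNA 2 (-1.41, adjusted p = 1.06e-06). The chromatin assembly subunits CHAF1B (-0.97) and CHAF1A (-0.75) and the chaperones ASF1B (-0.95) and NASP (-0.82) were lower as well.

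Genes of G2 and mitosis were lower with siRNA 1 too: 45 of 66 tested were lower, 0 were higher, and all 66 differences were below 0, with a median of -0.782. Over all genes 5.75% were lower and 3.97% higher, with a median of 0.0133. At an unadjusted limma p under 0.05, 64 were lower and 0 higher, where 3132 of all 13515 genes differed in either direction. CDK1, the kinase that drives entry into mitosis, read 8.57, 8.75 and 8.16 with siRNA 1, 10.14, 10.59 and 10.00 with siRNA 2, and 10.16, 10.40 and 9.86 with control siRNA (-1.75, adjusted p = 6.82e-05). TOP2A, which untangles sister chromatids, differed by -1.36, the spindle midzone protein PRC1 by -1.32, the kinase MELK by -1.28, the condensin subunit NCAPG by -1.23 and the checkpoint kinase BUB1 by -1.19. BUB1 lost its call without siRNA 1 replicates 1 or 3 or siRNA 2 replicate 2 (adjusted p up to 0.0709). Not every member passed: PLK1 (-0.24), NCAPH (-0.12) and MYBL2 (-0.06) were not called with or without the replicate block. FOXM1 (-0.51), MKI67 (-0.34) and CCNB1 (-0.63) were called with the block alone.

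The mitotic genes varied with the replicate number in all groups. Their mean log2 signal was 8.26, 8.59 and 7.91 in siRNA 1 replicates 1 to 3, 8.97, 9.24 and 8.85 with siRNA 2, and 8.93, 9.13 and 8.67 with control siRNA. Replicate 2 was the highest and replicate 3 the lowest in each group, and within each number siRNA 1 was the lowest. With the replicate number as a block, 63 of 66 were lower, where the block called 1253 of all 13515 genes lower. Without siRNA 1 replicate 3, only 26 were, and with background correction 31 were. The replication lists varied less with the number, and their counts stayed between 15 and 17 of 23 and between 16 and 23 of 28 when any array was left out.

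**Figure D3:**
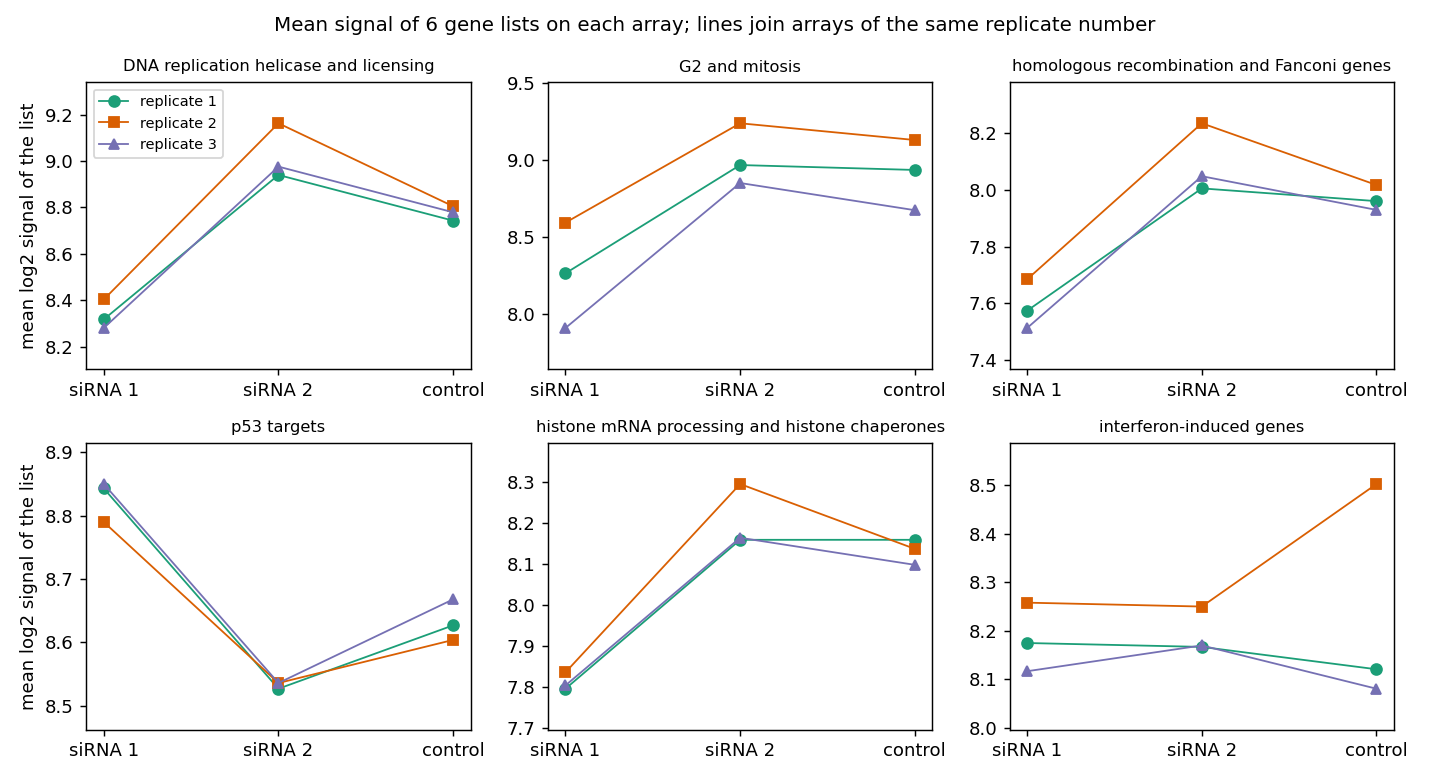
Mean log2 signal of 6 gene lists (vertical axes, each with its own range that does not start at 0) on each WM266-4 array by group, with lines joining arrays of the same replicate number. The replication, G2 and mitosis, recombination and histone processing lists are lowest with siRNA 1 in each replicate, the p53 targets are highest with siRNA 1, and the interferon-induced genes keep similar means in the siRNA groups.

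The promoters of these genes were searched for short motifs because members of the lists moved together. The share of a list counts all its tested members with a promoter, called or not. It describes how the list is made up and not the difference between the siRNAs. The RefSeq table (GRCh38.p14) gives 300 bases per gene, 250 before and 50 after its annotated start, and 10720 of the 13515 tested genes had an entry. The E2F motif TTTNNCGC, on either strand, was in 11 of 19 licensing and helicase promoters (57.9%) and in 13 of 24 polymerase and fork promoters (54.2%), against 9.92% of all tested genes and 6.90% of all 27305 promoters. It was in 2 of 10 deoxynucleotide supply promoters and in 4 of 20 recombination and Fanconi promoters. The CHR motif TTTGAA, through which MuvB complexes act on mitotic genes, was in 40 of 57 G2 and mitosis promoters (70.2%), against 10.6% of tested genes and 15.4% of all promoters. The CCAAT box, CCAAT on either strand, was in 39 of these 57 (68.4%), against 36.8% and 35.7%. It was also in 12 of 19 licensing and helicase promoters (63.2%) and 13 of 24 polymerase and fork promoters (54.2%). Among p53 targets, called higher more often than lower with siRNA 1, 11 of 21 promoters held it (52.4%). So did 9 of 20 recombination and Fanconi promoters and 3 of 10 deoxynucleotide supply promoters. The box was thus not particular to the mitotic list, nor to lists that were lower with siRNA 1. Of tested genes whose promoter held both CCAAT and TTTGAA, 12.8% were lower with siRNA 1 and 3.16% higher, and of the others 5.74% were lower and 4.14% higher. With the E2F motif 10.2% were lower and 4.89% higher, and without it 5.60% were lower and 4.01% higher. The forkhead motif GTAAACA was in 2.62% of promoters of genes lower with siRNA 1, 2.96% of those higher, 2.27% of all tested genes and 3.41% of all promoters. A match is a description of the letters and does not show that a factor binds there.

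The promoters of MCM6, CCNB2 and CDK1 are shown as examples of a replication gene, a mitotic gene and a gene with all 3 cell cycle motifs, chosen after their values were seen. They are printed 5′ to 3′ in the direction of the gene, and capitals mark matches to TTTNNCGC, CCAAT or TTTGAA on either strand.
MCM6, chr2:135876394-135876693, minus strand: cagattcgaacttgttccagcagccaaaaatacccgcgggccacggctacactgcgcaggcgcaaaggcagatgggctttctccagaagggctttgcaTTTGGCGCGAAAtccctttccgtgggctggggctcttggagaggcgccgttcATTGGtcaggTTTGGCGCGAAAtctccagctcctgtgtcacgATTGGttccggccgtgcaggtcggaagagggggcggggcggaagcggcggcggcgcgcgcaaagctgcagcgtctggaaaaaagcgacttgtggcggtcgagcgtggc
CCNB2, chr15:59104896-59105195, plus strand: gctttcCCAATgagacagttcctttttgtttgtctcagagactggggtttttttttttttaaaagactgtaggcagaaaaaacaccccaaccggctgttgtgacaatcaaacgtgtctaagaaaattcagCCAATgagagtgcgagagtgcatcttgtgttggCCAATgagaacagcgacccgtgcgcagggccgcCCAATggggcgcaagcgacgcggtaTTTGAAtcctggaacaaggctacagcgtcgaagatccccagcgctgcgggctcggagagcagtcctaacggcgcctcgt
CDK1, chr10:60778081-60778380, plus strand: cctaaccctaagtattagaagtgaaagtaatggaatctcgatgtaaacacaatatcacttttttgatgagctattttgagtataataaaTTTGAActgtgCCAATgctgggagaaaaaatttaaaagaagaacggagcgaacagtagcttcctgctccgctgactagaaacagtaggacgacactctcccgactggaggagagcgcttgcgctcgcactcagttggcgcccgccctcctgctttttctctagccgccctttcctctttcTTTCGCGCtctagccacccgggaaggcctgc
The MCM6 promoter held 4 E2F matches, which overlap in pairs because each site reads as a match on both strands, and 2 CCAAT boxes. The CCNB2 promoter held 4 CCAAT boxes and 1 CHR, with CCNB2, a mitotic cyclin, at -0.90. The CDK1 promoter held 1 match of each kind, and also the forkhead motif, found in no other of the 57 G2 and mitosis promoters.

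Repair genes that act with replication were lower as well. Of 22 homologous recombination and Fanconi genes, 11 were lower and 0 higher, with a median of -0.533 and 1 higher at an unadjusted limma p under 0.05. Over all genes 5.75% were lower and 3.97% higher, with a median of 0.0133. The exonuclease EXO1 differed by -1.38, FANCI by -1.18, BRCA1 by -1.05 and its partner BARD1 by -0.87. BRCA1 read 7.18, 7.36 and 7.03 with siRNA 1, 8.22, 8.32 and 8.19 with siRNA 2, and 7.93, 7.95 and 7.72 with control siRNA. The damage kinases ATM (0.22) and ATR (-0.02) were not called, and the checkpoint kinase CHEK1, a cell cycle gene itself, was lower (-0.60).

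Targets of p53 moved the other way. Of 26 tested, 12 were higher with siRNA 1 and 2 were lower, with a median of 0.258, against 3.97% higher over all genes. CDKN1A, the CDK inhibitor p21, read 13.37, 13.42 and 13.46 with siRNA 1, 12.48, 12.43 and 12.64 with siRNA 2, and 12.57, 12.53 and 12.64 with control siRNA (0.90, 1.87-fold, adjusted p = 3.16e-05). The siRNA 2 arrays overlapped the controls. TP53I3 (0.90), the repair factor XPC (0.74), the apoptosis effector BAX (0.73), GADD45A (0.72), the death receptor TNFRSF10B (0.70) and the nuclease AEN (0.69) were higher. The 2 lower genes were the cyclin CCNG1 (-0.74) and TP53INP1 (-0.39), and the p53 regulator MDM2 was not called (0.22). TP53INP1 was not called without siRNA 1 replicates 1 or 2 or siRNA 2 replicates 1 or 3. The mean of the list was 8.84, 8.79 and 8.85 with siRNA 1, 8.53, 8.54 and 8.54 with siRNA 2, and 8.63, 8.60 and 8.67 with control siRNA, with no overlap between groups. Of the wider BCL2 family, BID (-0.56) and BCL2 (-0.53) were lower beside the higher BAX, and 12 of 15 were not called, MCL1 (-0.02) among them. Over all genes 9.72% were called. BCL2 lost its call without siRNA 1 replicates 1 or 3 or siRNA 2 replicates 1 or 2 (adjusted p up to 0.122). With the mean of the detected probes, BID and BCL2 were not called. Dimmer probes read -0.37 and 0.02 for BCL2, -0.32 and 0.04 for BID and 0.14 for BAX. With the replicate block 2 of the 15 were higher and 3 lower, where the block called 17.7% of all genes.

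Metabolic genes differed in smaller numbers, and their counts stand beside 5.75% lower and 3.97% higher over all genes. Of all 13515 genes the blocked fit called 1253 lower and 1137 higher. At an unadjusted limma p under 0.05, 3132 of them differed in either direction. Of 28 cholesterol and fatty acid synthesis genes, 6 were lower and 0 higher, also at an unadjusted limma p under 0.05, and 13 were lower with the replicate block. They were HMGCS1 (-0.83), which makes HMG-CoA, INSIG1 (-0.56), ACAT2 (-0.53), IDI1 (-0.52), the desaturase SCD (-0.51) and FADS1 (-0.47). The regulators SREBF1 (-0.10) and SREBF2 (-0.01) were not called, and 3 genes remained lower without siRNA 1 replicate 1 and 3 without siRNA 1 replicate 3. Of 32 hypoxia and glycolysis genes, 7 were lower and 0 higher, also at an unadjusted limma p under 0.05, and 12 were lower with the block. SLC2A3, a glucose transporter, read 8.62, 8.83 and 8.94 with siRNA 1, 9.83, 10.18 and 10.37 with siRNA 2, and 11.07, 12.11 and 11.15 with control siRNA (-1.33, adjusted p = 0.00251). Both siRNA groups lay below the controls, siRNA 1 further. The mitophagy receptor BNIP3L differed by -1.02, and VEGFA (-0.17), SLC2A1 (-0.16) and PGK1 (0.02) were not called. The count of 7 fell to 2 without siRNA 1 replicate 1, 4 without siRNA 1 replicate 3 and 3 without siRNA 2 replicate 3. Of 24 genes of the ATF4 and unfolded protein responses, DNAJB9 (-0.95) and MTHFD2 (-0.78) were lower and none was higher, with 3 higher at an unadjusted limma p under 0.05 and 1 higher in the blocked fit. MTHFD2 was not called without siRNA 1 replicate 1 (adjusted p = 0.0568).

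Adhesion, matrix and contractile genes had medians above 0 (0.21, 0.13 and 0.19). Over all genes 3.97% were higher and 5.75% lower, beside which the following counts stand. Of all 13515 genes the blocked fit called 1137 higher and 1253 lower. At an unadjusted limma p under 0.05, 3132 of them differed in either direction. Of 25 contractile and mesenchymal genes, 3 were higher (ACTA2, 1.61; the protease MMP14, 0.46; ACTG2, 0.39) and 0 lower, also at an unadjusted limma p under 0.05, and 8 were higher with the replicate block. MMP14 was not called without siRNA 1 replicate 3 (adjusted p = 0.0574), nor ACTG2 without siRNA 1 replicates 1 or 2 or siRNA 2 replicate 2 (adjusted p up to 0.0782). TAGLN (0.28), VIM (-0.05) and FN1 (0.16) were not called. Of 16 integrins and cadherins, CDH19 (0.65), ITGA5 (0.62) and ITGA2 (0.53) were higher and 0 lower. With the block 7 were higher, and without siRNA 1 replicate 1, siRNA 1 replicate 3 or siRNA 2 replicate 2 only 1 was. CDH19, a cadherin of the neural crest lineage, read 10.06, 9.98 and 10.12 with siRNA 1, 9.44, 9.17 and 9.61 with siRNA 2, and 10.26, 10.21 and 10.44 with control siRNA. Both siRNA groups lay below the controls, siRNA 2 further. Of 34 collagens and matrix glycoproteins, THBS2 (0.57), VCAN (0.52) and LAMB2 (0.51) were higher, with 5 higher and 1 lower in the blocked fit. VCAN was not called without siRNA 1 replicate 1 or siRNA 2 replicate 3 (adjusted p = 0.0917 and 0.0645).

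Beside CCN2, the targets of YAP, TAZ and TEAD gave 4 higher (GADD45A, 0.72; MYOF, 0.64; PTPN14, 0.51; FJX1, 0.50) and 1 lower (ASAP1, -0.39) of 26 tested. ASAP1 lost its call when any siRNA array but siRNA 2 replicate 3 was left out. PTPN14 lost its call without siRNA 1 replicate 1 (adjusted p = 0.0597) and with the mean of its detected probes (adjusted p = 0.0632). The median of the 26 targets was 0.14, and over all genes 3.97% were higher and 5.75% lower. GADD45A is on the p53 list too, and AXL (0.13) and LATS2 (0.11) were not called.

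The melanoma state lists stand beside 9.72% of all genes called. In the blocked fit 17.7% of all genes were called. At an unadjusted limma p under 0.05, 3132 of 13515 genes differed in either direction. Of 23 melanocytic genes 0 were called by limma in either direction, with 6 lower at an unadjusted p under 0.05 and 5 lower with the block, MITF (-0.37) and EDNRB (-0.47) among those 5. TYR (0.04), PMEL (-0.04) and MLANA (0.04) differed by little. PMEL ranged from 9.91 to 11.58 over the 6 siRNA arrays. MLANA was dim (means 6.70 and 6.66) and detected on 3 of 6. The small differences of these 2 genes therefore say little. Of 21 genes of the undifferentiated and invasive state, NGFR (0.56) and FOSL1 (0.49) were higher and JUN (-0.62) and TEAD4 (-0.52) lower, with 6 higher in the blocked fit. NGFR, a neural crest receptor, read 7.40, 7.93 and 7.73 with siRNA 1, 7.19, 7.16 and 7.04 with siRNA 2, and 7.93, 7.99 and 7.66 with control siRNA. Its siRNA 2 arrays were the low ones, and the call was lost without siRNA 1 replicates 2 or 3 or siRNA 2 replicate 3 (adjusted p up to 0.0641). AXL and WNT5A (0.19) were not called.

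The signalling lists stand beside the same 9.72% of all genes called, or 17.7% in the blocked fit. Of 28 receptor tyrosine kinases and ligands, NGFR, ERBB2 (0.36) and PDGFA (0.34) were higher and FGF2 (-0.52) was lower, and EGFR (0.06) and MET (0.17) were not called. ERBB2 and PDGFA each lost their calls in at least 9 of the alternatives. Of 29 ERK output genes, 2 were higher (FOSL1 and SPRED2, 0.44) and 2 lower (SPRY4, -0.51, and PHLDA2, -0.47), and none of these 4 calls was kept with background correction. DUSP6 (0.17) and DUSP4 (-0.01), feedback phosphatases of ERK, were not called. Of 28 TGF-beta and BMP genes, TGFBR3 (-0.73), ACVR2A (-0.38) and SMAD5 (-0.37) were lower, and 0 were called without siRNA 1 replicate 1. Of 18 NF-kB feedback genes and cytokines TNFAIP3 (0.42) was called, with 2 higher and 1 lower in the blocked fit, and it lost its call without siRNA 1 replicates 1 or 3 or siRNA 2 replicates 1 or 2.

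The following counts stand beside 9.72% of all genes called, 3.97% higher and 5.75% lower. In the blocked fit 17.7% of all genes were called. At an unadjusted limma p under 0.05, 3132 of 13515 genes differed in either direction. Interferon-induced genes, which double-stranded RNA can raise, held no call in either direction. Of 36 tested, 0 were called by limma, 2 were higher and 3 lower at an unadjusted p under 0.05, and 2 were lower in the blocked fit. The differences ran from -0.43 (HERC5) to 0.31 (IRF9), and IFIT1 (-0.19) and ISG15 (0.16) pointed in different directions without a call. The mean of the list was 8.12 to 8.26 with siRNA 1 and 8.17 to 8.25 with siRNA 2, and 8.12, 8.50 and 8.08 with control siRNA, where replicate 2 stood apart and adds to the spread that the fit uses. Without that array 1 gene was called, MX2, an antiviral GTPase, which was lower with siRNA 1 (-0.37). Of 39 oxidative phosphorylation subunits 0 were called, with 6 higher and 2 lower at an unadjusted p under 0.05 and 1 higher in the blocked fit, and their median was 0.00. Of 58 ribosomal protein genes RPL28 (0.44) was higher and RPS7 (-0.33) lower, with 3 higher and 1 lower in the blocked fit, RPS7 not without siRNA 1 replicate 1 or siRNA 2 replicates 1 or 3 (adjusted p up to 0.0967). Of 31 lysosomal genes ATP6V1C1 (-0.34) was lower and 0 were higher, with 3 higher at an unadjusted limma p under 0.05 and with 3 higher and 3 lower in the blocked fit. ATP6V1C1 lost its call without siRNA 1 replicates 1 or 3 or siRNA 2 replicates 1 or 2.

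**Figure D4:**
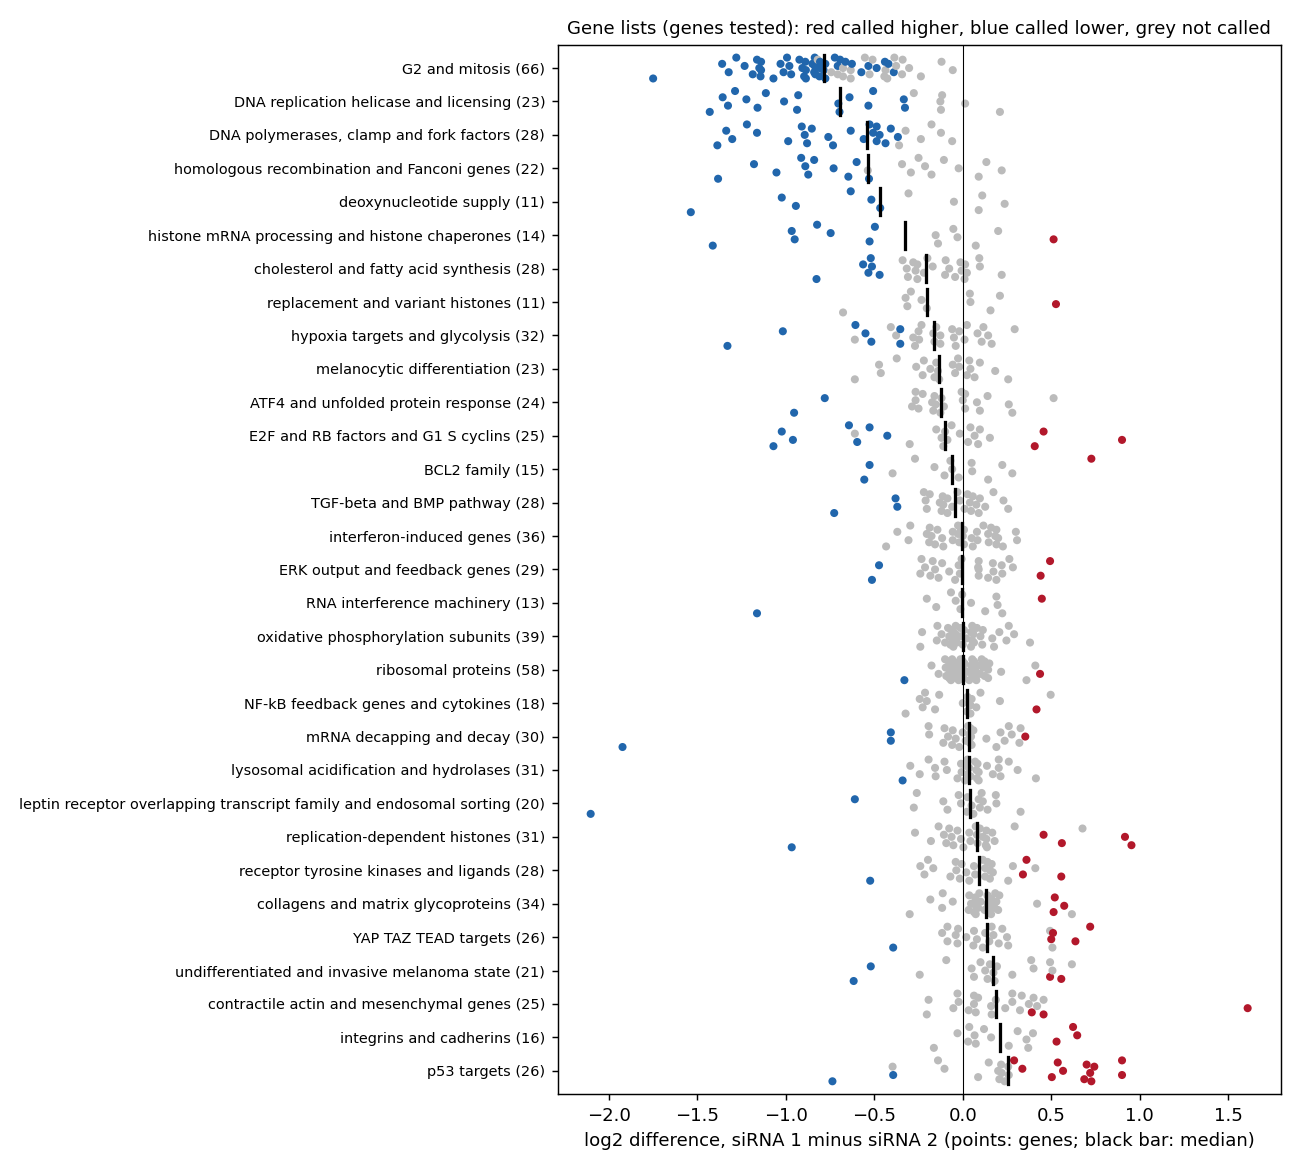
Log2 difference of siRNA 1 minus siRNA 2 (horizontal axis) for each tested gene of 31 lists, with the number of genes tested in parentheses, blue for genes called lower, red for genes called higher, grey for genes not called and a black bar for each list's median. The lists are ordered by median, from -0.782 for G2 and mitosis to 0.258 for p53 targets, and the ribosomal and oxidative phosphorylation genes lie near 0.

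Markers of the labelled cell type were present. TYR, PMEL, SOX10 and MITF, which define the melanocyte lineage, were detected on all 6 siRNA arrays, and MLANA on 3. Summed on the linear scale, the 9 measured melanoma markers reached 17790 to 19710 with siRNA 1 and 17560 to 18920 with siRNA 2. Of these 9, 0 were called by limma, with 1 higher and 2 lower at an unadjusted p under 0.05 and 2 higher and 1 lower in the blocked fit. Of all genes limma called 9.72%, and 17.7% in the blocked fit. At an unadjusted limma p under 0.05, 3132 of 13515 genes differed in either direction. The 8 fibroblast markers summed to 5793 to 7402 and 4265 to 5308, a difference carried by COL1A2 (0.42, not called) and FAP (0.60, called), with 2 of 6 tested higher in the blocked fit, while PDGFRA and THY1 were detected on none of the 6. Of 7 keratinocyte markers 5, KRT5 and KRT14 among them, were never detected, while KRT10 was detected on all 6 arrays and DSG1 on 2. Of these 2 tested, 0 were called by limma and 1 was higher in the blocked fit. Of 7 immune and endothelial markers 3, PTPRC, CD3E and CDH5, were never detected. CD14, CD68 and VWF were detected on all 6 arrays and PECAM1 on 1. The part of these markers in the contractile and matrix results was not tested.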

How the data were processed

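Total RNA of 9 WM266-4 arrays was used: control siRNA, FOXD1 siRNA 1 and FOXD1 siRNA 2, each with 3 replicates grouped by title. A375 arrays were not used here. The authors deposited a linear intensity with its detection p-value for each probe, per the file headers, and a table of log2 values. Set against the intensities, the deposited log2 values were quantile normalized within WM266-4 with no background subtraction, differing from that calculation by at most 0.0053. Median intensities were 94.35 to 103.9, 46.3% to 50.4% of probes were detected per array, no pair of arrays held more than 7.37% of probes within 1% of each other, and the number of arrays limits the precision.

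Of 48107 probes, 48099 were complete. A platform annotation gave 1 symbol for 30108, several for 8 and none for 17983. By gene identifier, 30069 matched RefSeq GRCh38.p14. For each gene the probe brightest on average over the 6 siRNA arrays was used. Of 456 called genes with another measured probe, that probe had the opposite sign for 72 and was called opposite for 1.

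The log2 values of the 9 arrays were fitted with limma 3.58.1 (lmFit and eBayes, R 4.3.3) without covariates, and siRNA 1 minus siRNA 2 was tested with Benjamini-Hochberg adjustment over all 13515 genes at 0.05. All adjusted p-values are from limma. Background correction as an alternative used neqc with an offset of 16. The script was tested on simulated data. Same-numbered arrays deviated together from their group means (r 0.244 to 0.419 across genes for each pair), so the number was taken to pair the arrays, and blocked values are given where they change a call or move a count by over 1.5 times.

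The genes and lists were chosen with earlier results of these data known. Named by rule were the 15 called genes with the largest difference in each direction whose groups do not overlap, up to 6 called members per list and direction, and the FOXD genes and CCN2. Uncalled members, further called members and the printed promoters were chosen after their values were seen.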

Additional observations from a re-analysis of the deposited data

How the results depend on the processing

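For 11 main results (the gene counts, the counts of 6 lists and FOXD1), 193 of 208 recomputations kept their direction, their side of the threshold, and for counts stayed within 1.5 times, and no result changed sign. With the replicate block the calls numbered 2390, with 1137 higher and 1253 lower, and in the 6 siRNA arrays alone with the block 2323, with 1100 higher and 1223 lower. All 1314 calls held with the block, which added others, FOXD2, FOXM1, MKI67, CCNB1, MITF and EDNRB among them. With neqc background correction 316 genes were higher and 297 were called at an at least 2-fold difference, and 930 were called in all. Leaving out each of the 9 arrays in turn gave 758 to 1347 calls, 264 to 545 higher, 494 to 802 lower, 95 to 139 at an at least 2-fold difference, 26 to 55 lower genes of G2 and mitosis, and -0.605 to -0.535 for FOXD1. FOXD1 was not detected on all 6 siRNA arrays, so that stricter filter gives no value for it. The cause of these shifts was not tested. Of 137 called genes besides FOXD1 that the naming rule selects, not all of them named in the text, 88 kept their call under every alternative and 49 lost it under at least 1, of which 47 under the loss of an array and 39 under another setting. Background correction lost 32 of them. It made the fold of 16 of 138 called genes selected by the rule, FOXD1 included, over 1.5 times larger, among them CHAF1A (3.17-fold), DTL (4.17-fold) and H2AC6 (3.82-fold). Of 36 counts of smaller lists, 26 moved by over 1.5 times under at least 1 alternative. Dim signal limits FOXD1 and other genes near the detection limit.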

Other observations

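Among 7704 detected probes with no gene symbol, 128 (1.66%) were called by limma, 61 higher and 67 lower with siRNA 1, with p-values adjusted over those probes. For 11 called genes a group of 3 arrays had no detected signal.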
